A study of Mus musculus with 2 samples.

Results

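The 46 mitosis genes described here are a list of symbols that encode the machinery of cell division, and all 46 were found among the 32285 genes of the deposited count matrices. They were counted in spleen cells of WT mice that had been sorted for CD45, the surface protein of white blood cells. Every mouse had been infected, per the labels, with 10000 iRBCs (an abbreviation that they do not spell out), given into the peritoneal cavity. Vehicle or the compound Glutoborin was given on days 2 and 4, and spleens were taken on day 5 of the infection. There was 1 library of each treatment, Vehicle and Glutoborin, and strain, age, dose and number of mice are not given in the sources used here. No difference between the treatments could therefore be tested: all intervals below are exact 95% intervals that cover counting error only, and differences between mice are not in them. Intervals of UMI sums and of their ratios take every UMI as independent, although few cells can hold many of them. Which cells happened to be caught is therefore not in those intervals either. Where a count was 0, the share that 3 counts would give is named as its upper limit.

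A cell that divides first copies its DNA in S phase and then separates the copies in mitosis. Entry into mitosis is driven by the kinase Cdk1 with its cyclins. Kinesins and tubulin-binding proteins build the spindle, kinetochore proteins attach chromosomes to it, a checkpoint holds the cell until all are attached, and the anaphase-promoting complex then marks cyclins and other proteins for destruction. Most of these genes are transcribed late in the cell cycle and are silenced in resting cells, and in spleen they are known from lymphocytes that multiply during an immune response. Of the 46, 40 are used nearly always in division (called narrow members here), while 6 (Hmgb2, Stmn1, Tubb4b, Bub3, Cks1b and Smc4) are known in resting cells too and are called broad.

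The promoters of such genes often carry a CCAAT box, which the factor NF-Y binds, and a cell cycle genes homology region (CHR), which the DREAM and MuvB complexes bind. RefSeq promoters on GRCm38.p6, each from 250 bases before to 50 bases after a gene's start, were at hand for 39 of the 46 members, as 42 promoters. A CHR, searched as TTTGAA or TTCGAA on both strands, was found in 33 of the 42 (78.6%), against 19.2% of all 32851 promoters. CCAAT, searched on both strands, was found in 34 (81%), against 37.4% of all. At least 2 CCAAT boxes were found in 27 (64.3%), against 11.7% of all, and both motifs stood together in 29 (69%), against 7.52% of all. The motifs do not overlap in their letters, and a match is a description of the sequence, not a binding site.

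The sequences below show where these motifs lie in a part of the promoter only. They are given for 3 members that were higher in the Glutoborin library (Ube2c, Ccnb2, Cenpf) and for Cdc20, the partner of Ube2c. The others are the abundant narrow members Top2a and Mki67, the broad member Hmgb2, and Birc5, one of 4 members with neither motif. Each runs 5′ to 3′ on the gene's strand, from 120 to 11 bases before the RefSeq start, with CHR and CCAAT matches in capitals (ATTGG is CCAAT and TTCAAA is TTTGAA read on the opposite strand).
Ube2c (chr2:164769809-164769918, plus strand): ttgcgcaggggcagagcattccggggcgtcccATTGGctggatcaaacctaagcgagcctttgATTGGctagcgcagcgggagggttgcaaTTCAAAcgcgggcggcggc
Ccnb2 (chr9:70421565-70421674, minus strand): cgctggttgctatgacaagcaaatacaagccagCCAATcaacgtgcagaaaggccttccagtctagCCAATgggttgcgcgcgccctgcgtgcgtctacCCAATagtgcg
Cenpf (chr1:189688097-189688206, minus strand): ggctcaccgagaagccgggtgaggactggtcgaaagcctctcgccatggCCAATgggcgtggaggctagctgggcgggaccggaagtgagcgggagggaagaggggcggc
Cdc20 (chr4:118437354-118437463, minus strand): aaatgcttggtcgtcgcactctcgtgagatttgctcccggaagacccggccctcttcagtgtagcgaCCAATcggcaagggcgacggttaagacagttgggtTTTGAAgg
Top2a (chr11:99024200-99024309, minus strand): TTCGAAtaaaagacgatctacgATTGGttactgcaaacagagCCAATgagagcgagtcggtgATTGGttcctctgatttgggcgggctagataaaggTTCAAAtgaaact
Mki67 (chr7:135716390-135716499, minus strand): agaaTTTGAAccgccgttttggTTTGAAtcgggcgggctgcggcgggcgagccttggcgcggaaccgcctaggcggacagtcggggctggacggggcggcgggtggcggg
Hmgb2 (chr8:57511723-57511832, plus strand): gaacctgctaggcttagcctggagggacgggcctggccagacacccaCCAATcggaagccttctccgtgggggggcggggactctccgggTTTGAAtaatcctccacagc
Birc5 (chr11:117849117-117849226, plus strand): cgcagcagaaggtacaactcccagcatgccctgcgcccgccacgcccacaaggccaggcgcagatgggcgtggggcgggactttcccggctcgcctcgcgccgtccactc

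In Ube2c the CCAAT boxes began 88 and 57 bases before the start and the CHR 29 bases before it. Ccnb2 held 3 CCAAT boxes, at 87, 54 and 21 bases, and Top2a held 3, at 98, 78 and 58 bases, with CHR matches at 120 and 23. Cdc20 and Hmgb2 held 1 of each motif in this stretch. Mki67 had 2 CHR matches, at 116 and 98 bases, and no CCAAT there, Ccnb2 and Cenpf had no CHR there, and Birc5 had neither. Outside this stretch the promoters of Ccnb2, Cenpf and Mki67 did hold the missing motif. Ccnb2 had a CHR 167 bases before the start and another at base 5 counted from it, and Cenpf had a CHR at base 3. Mki67 had CCAAT boxes 188, 166 and 141 bases before the start. The motifs did not separate broad from narrow members: all 5 promoters of broad members held both, as did 24 of 37 promoters of narrow members. Cdc25c, the other member called higher below, had no promoter in the table.

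After filtering, 6493 Vehicle cells with 44139459 unique molecular identifiers (UMIs, each 1 captured 3′ transcript end) and 8906 Glutoborin cells with 52526302 UMIs were kept, with medians of 5688 and 4811 UMIs a cell. In the Vehicle library, 18.5% of barcodes had at least 10% mitochondrial UMIs, in the Glutoborin library 4.07%, and 16 and 3 of them would have counted as rich in mitosis genes as defined below. The libraries shared 20 barcodes, none of them such a cell. Ptprc, the gene of CD45, had a UMI in 95.9% and 94.5% of cells. Levels are given as CPM, UMIs of a gene per 1000000 UMIs, and are not divided by gene length, since 3′ counting takes 1 end per transcript.

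Mitosis transcripts were rare and sat in few cells. The 40 narrow members summed to 20494 UMIs, 464 CPM, in the Vehicle library and to 26902 UMIs, 512 CPM, in the Glutoborin library. At least 1 narrow member had a UMI in 57.8% of Vehicle and 52.8% of Glutoborin cells, so single UMIs were common. The number detected per cell then fell steeply and rose again: 47 Vehicle and 60 Glutoborin cells held 30 or more of the 40, and 1 and 2 cells held all 40. Cells with at least 5 narrow members are called mitosis-rich here; this is a range of a count, not a cell type, and 95 and 92 cells lay just below it with 4 members and 28 and 26 cells just inside it with 5.

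**Figure D1:**
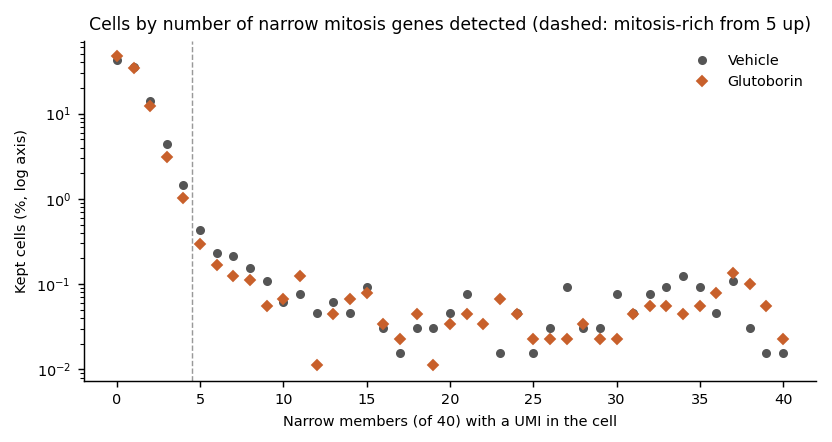
Share of kept cells (percent, log axis) by the number of the 40 narrow mitosis genes with a UMI in the cell, for Vehicle (grey circles) and Glutoborin (orange diamonds); the dashed line marks the lower bound of mitosis-rich cells. The share falls from 0 to about 10 members and has a second, low rise above 30, where 47 Vehicle and 60 Glutoborin cells lie.

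There were 178 mitosis-rich cells in the Vehicle library, 2.74% of cells (2.36% to 3.17%), and 203 in the Glutoborin library, 2.28% (1.98% to 2.61%). These intervals overlapped. With at least 3 members asked for in place of 5, the shares were 8.66% and 6.42%, and the log2 ratio of -0.43 (-0.60 to -0.26), Glutoborin over Vehicle, lay below 0 beyond counting error. With at least 10 members the shares were 1.60% and 1.53%, and with every cell thinned to 2000 UMIs and at least 3 members they were 1.93% and 1.74%, with intervals of the ratio that held 0. Mitosis-rich cells held 67.9% and 71.2% of all narrow UMIs but 8.13% and 6.77% of all UMIs. The first share follows in part from the rule, since these cells were chosen by their narrow members. The 10 richest cells alone held 16.9% and 16.2% of narrow UMIs. These cells were also deep, with medians of 17932 and 15439 UMIs against 5597 and 4749 in the other cells, and deeper cells show more genes. The 195 and 347 barcodes called doublets and left out included 8 and 14 mitosis-rich ones.

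Each member was then asked whether its UMIs lay in cells that were rich in the others: the share of its UMIs in cells with at least 5 narrow members other than itself. This share was at least 50% for 38 of 46 members in the Vehicle and 39 of 46 in the Glutoborin library. Outside the members, 123 of 11548 genes (1.07%) had 50% or more of their UMIs in mitosis-rich cells, and the median gene had 7.25% there. The most restricted members were Hmmr, a spindle protein, with 96.8% and 97.2%, Bub1, a checkpoint kinase, with 96.3% and 99.2%, and Cenpf, a kinetochore protein, with 95.3% and 96.7%. Birc5 (survivin, of the chromosomal passenger complex) had 94.4% and 94.0%, and Mki67, the source of the Ki-67 antigen, 91.8% and 92.8%.

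Some members named as narrow were not restricted in these cells. Cenpa, the histone that marks centromeres, had only 24.5% and 27.6% of its UMIs in cells rich in other members and stood at 44.4 and 52.6 CPM outside mitosis-rich cells. Cks2, a Cdk1-binding subunit, had 35.6% and 42.1%, and the kinesin Kif20b 37.0% and 33.7%. Ndc80, of the outer kinetochore, had 40.5% and 36.8%, and the cytokinesis kinesin Kif23 46% and 50.8%. By contrast the broad Stmn1 (stathmin, a tubulin-binding protein) had 75.1% and 77.8%, more than several narrow members. Bub3, which also works in splicing, was the most evenly spread at 12.5% and 12.7%.

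**Figure D2:**
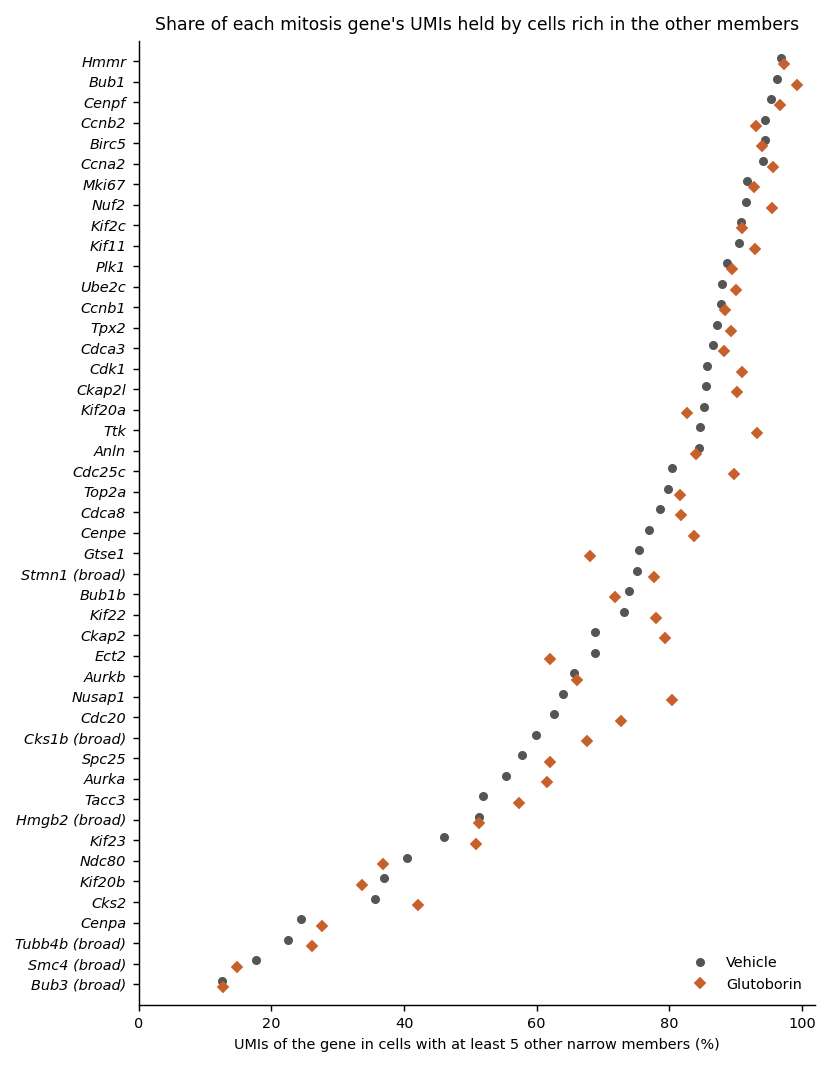
For each of the 46 members, the percent of its UMIs that lie in cells with at least 5 other narrow members, in the Vehicle (grey circles) and Glutoborin (orange diamonds) library; the 6 broad members are marked. Members run from Bub3 at 12.5% and 12.7% up to Hmmr at 96.8% in the Vehicle and Bub1 at 99.2% in the Glutoborin library, and the 2 libraries lie close to each other for most members.

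Neutrophils, which do not divide, were looked at as cells that should lack these transcripts, but they were few. Their narrow sum was not low: 30 UMIs (450 CPM, 304 to 642) in the Vehicle and 59 UMIs (227 CPM, 173 to 292) in the Glutoborin library. B cells stood at 211 and 197 CPM. With at least 3 members asked for after thinning, 1 of 16 and 0 of 57 neutrophils counted as mitosis-rich. In cells thinned to 2000 UMIs, Mki67, Top2a and Ube2c had a UMI in 0 of 16 Vehicle and 0 of 57 Glutoborin neutrophils, which allows shares of up to 18.8% and 5.26%. Birc5 had a UMI in 1 of 16 and 0 of 57, and Cenpa in 1 of 16 and 1 of 57. Thinned NK cells had Mki67 in 11.6% and 10.5% (22.4% and 15.8% unthinned), with median depths of 8809 and 6682.5 UMIs against 2737 and 3255 in neutrophils. The Vehicle limit from neutrophils lies above the Mki67 share of Vehicle NK cells, so 16 cells set no usable background for it. Cks2, however, had a UMI in 7 of 16 (43.8%) and 10 of 57 (17.5%) thinned neutrophils, and Hmgb2, a chromatin protein, in 13 of 16 (81.2%) and 51 of 57 (89.5%). A UMI of either gene alone thus did not mark a cell rich in mitosis genes.

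A second measure, the share of a gene's UMIs in the 1% of cells richest in it, was at least 50% for 35 of 46 members in the Vehicle and 38 of 46 in the Glutoborin library, where 17.9% and 22% of all measured genes reached it. A gene with few UMIs reaches this share however they are spread. Among genes with at least 500 UMIs, 7 of 17 members and 18 of 26 members reached it, against 1.32% and 2.09% of all such genes. Those 7 in the Vehicle library were Mki67, Top2a, Birc5, Ube2c, Nusap1, Cdca8 and Stmn1, and all 7 were among the 18 in the Glutoborin library.

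Genes that were not used to choose the cells moved with the members. In mitosis-rich cells, 82 further mitosis genes (such as Kif4, Aspm and Prc1) summed to 8763 CPM against 1550 in the other cells of the Vehicle library, and to 9803 against 1510 in the Glutoborin library. Of these, 72 of 78 and 75 of 81 measured genes were at least 2-fold higher there and 0 were 2-fold lower. The share of all genes that were 2-fold apart between these cells was not computed. This count and that of the cell cycle exit genes below therefore have no background beside them. S phase genes stood at 7145 against 1001 CPM and at 5933 against 900 CPM. The list of cell cycle exit and inhibitor genes also held the D cyclins and Cdk2, Cdk4 and Cdk6, which drive the cycle. Its counts, median and sum therefore mix both kinds. Of its 22 measured genes, 5 were at least 2-fold higher in mitosis-rich cells of each library. At least 2-fold lower were 2 (Vehicle) and 1 (Glutoborin). The median gene of the list stood at 0.22 and 0.30 (log2, mitosis-rich over other cells). Cdkn2c, an inhibitor of cyclin-dependent kinases, stood at 30.1 against 5.47 CPM and at 41.9 against 7.43 CPM. Btg1, the most abundant of the list, which restrains division, stood at 615 against 1760 CPM and at 650 against 1601 CPM, and Cdkn1b, another such inhibitor, had 4.63% and 4.13% of its UMIs in mitosis-rich cells, below the share of all UMIs there.

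The 10 genes outside the members with the largest share of UMIs in mitosis-rich cells were led by the replication histone Hist1h3b (98.1% over both libraries), the kinesin Kif14 (97.0%) and the kinase Pbk (96.7%). Hist1h3c, Hist1h2af, Kif18b, Ska1, Neil3 and Esco2, the last an enzyme that sets sister chromatid cohesion, followed. Pclaf, which binds the replication clamp, was the most abundant of the 10, with 2305 UMIs in the Vehicle and 1998 in the Glutoborin library and 95.1% of them in mitosis-rich cells.

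Over all kept cells, a few members, among them Ube2c and Cenpf, were higher in the Glutoborin library while most S phase genes lay below 0. Of 46 members, 4 were at least 1.5-fold higher and 0 at least 1.5-fold lower, where 3.44% of 12622 measured genes were higher and 3.06% lower by that rule and the median gene stood at 0.00 (log2 ratio of CPM, Glutoborin over Vehicle, as everywhere below). The summed narrow members had a log2 ratio of 0.14 (0.12 to 0.17), with 31 of 40 above 0, and the summed broad members 0.00. The 53 S phase genes had a summed log2 ratio of -0.27 (-0.29 to -0.26) with 48 below 0, 5 of them at least 1.5-fold lower (Uhrf1, Hells, Rad51ap1, Exo1 and Brip1) and 0 higher. The 82 further mitosis genes, tubulins and H2afz among them, had a summed ratio of -0.04, with 3 higher (Aspm, Cdkn3 and Parpbp) and 0 lower of 81 measured. Replication histones stood at 0.07, with 2 higher (Hist1h2ad and Hist2h3b) and 0 lower of 28 measured. The mixed list of cell cycle exit genes, D cyclins and their kinases stood at -0.10. Only Cdkn1a, an inhibitor of cyclin-dependent kinases, was lower (748 and 515 UMIs, -0.79) of its 22 measured genes.

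Ube2c, the ubiquitin-conjugating enzyme of the anaphase-promoting complex, had 675 UMIs (15.3 CPM) in the Vehicle and 1459 UMIs (27.8 CPM) in the Glutoborin library, a log2 ratio of 0.86 (0.73 to 0.99). It was the member with the highest ratio. Cenpf had 385 and 766 UMIs (8.72 and 14.6 CPM), a log2 ratio of 0.74 (0.56 to 0.92). Cdc25c, the phosphatase that switches on Cdk1, had only 51 and 98 UMIs, a log2 ratio of 0.69 (0.19 to 1.21). Cyclin B2 (Ccnb2) had 415 and 745 UMIs (9.40 and 14.2 CPM), with a ratio of 0.59 (0.42 to 0.77). It is one of the cyclins that carry Cdk1 into mitosis. With doublets kept it stood at 0.55 and was no longer past 1.5-fold, while Ccnb1 (0.59) passed with the mitochondrial limit at 25%. Without the 10 cells richest in narrow members in each library, these 4 and also Ccnb1 (0.68) and Kif20a (0.59) were at least 1.5-fold higher, Ube2c then at 1.04, and 0 were lower.

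By role, the partners of the anaphase-promoting complex (Ube2c, Cdc20, Cdca3) had the highest summed ratio, 0.58 (0.49 to 0.67), of which Ube2c carried most. Cdc20, its activator, had 382 and 582 UMIs (0.36) and Cdca3 432 and 607 (0.24). The kinetochore group followed at 0.27, with Cenpa at 2395 and 3571 UMIs (0.33, 0.25 to 0.40) and the motor Cenpe at 415 and 590 (0.26), while Ndc80 and Spc25 of the Ndc80 complex were at -0.09 and -0.21 and Nuf2 at 0.13. Summed ratios were 0.18 for cytokinesis (Anln 0.19, Ect2 0.18), 0.11 for kinesins, 0.11 for the Cdk1 core and 0.08 for mitotic kinases and the passenger complex. The spindle checkpoint stood at 0.05, spindle proteins at 0.00 and chromosome structure at -0.02.

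Among kinesins, Kif20a, which acts in the central spindle, had 129 and 219 UMIs (0.51), Kif2c 87 and 132 (0.35), Kif22 220 and 308 (0.23) and the spindle-separating Kif11 369 and 466 (0.09). Hmmr had 218 and 362 UMIs (0.48). The other spindle proteins lay between -0.16 (Nusap1, 662 and 704 UMIs) and 0.25 (Gtse1, 53 and 75 UMIs), with Tacc3 at 483 and 551 UMIs (-0.06), Ckap2 at 157 and 203 (0.12) and Ckap2l at 172 and 234 (0.19). The checkpoint kinase Ttk had 98 and 103 UMIs (-0.18) and cyclin A2 (Ccna2) 395 and 533 (0.18). Polo-like kinase Plk1 had 203 and 277 UMIs (0.20), the spindle protein Tpx2 483 and 583 (0.02), Birc5 913 and 1127 (0.05) and Cdca8 650 and 870 (0.17). None of the members named in this paragraph reached 1.5-fold.

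The most abundant members hardly differed. Hmgb2 led with 17408 and 20717 UMIs (394 and 394 CPM, log2 0.00), followed by Smc4, a condensin subunit, with 7143 and 8403 (-0.02) and Tubb4b, a tubulin, with 6656 and 7854 (-0.01). Bub3 had 4357 and 5367 (0.05) and Stmn1 3670 and 4423 (0.02). Top2a, which untangles DNA, and Nusap1 (-0.16, -0.32 to -0.01) were the 2 narrow members whose interval lay wholly below 0. Top2a had 2660 and 2830 UMIs (60.3 and 53.9 CPM, -0.16, -0.24 to -0.08), and Mki67 1459 and 1745 (0.01).

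**Figure D3:**
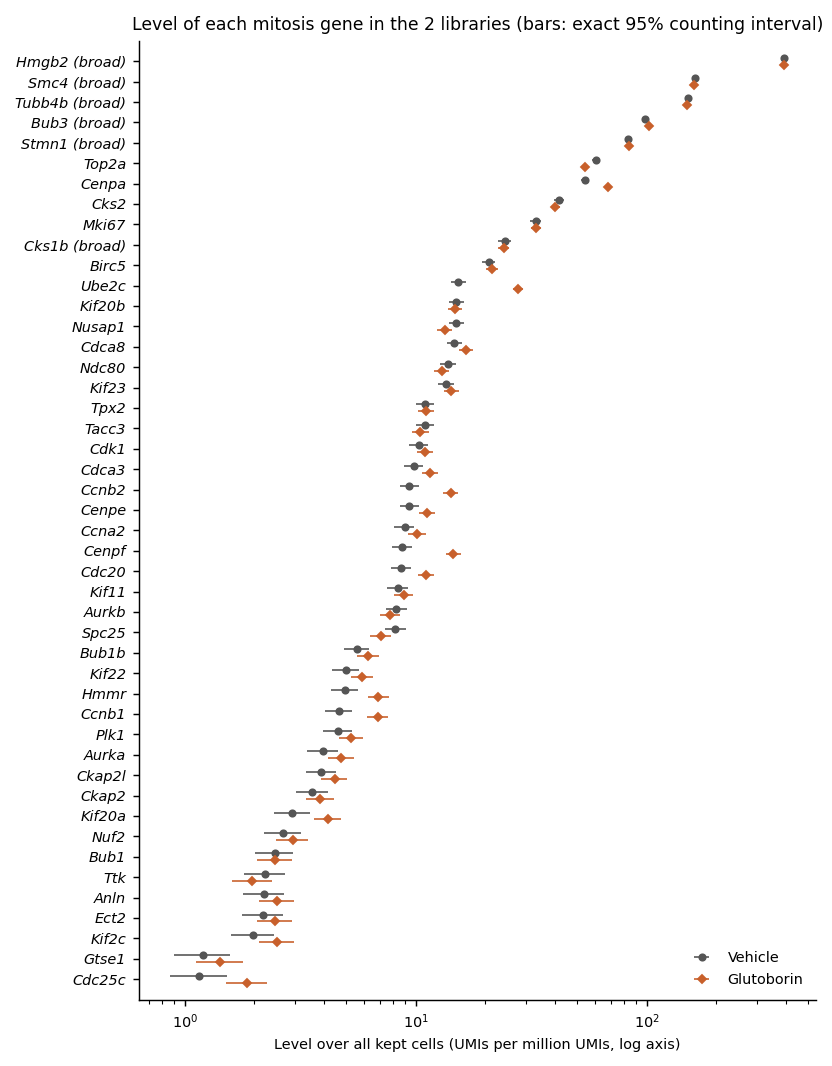
Level of each of the 46 members over all kept cells (CPM, log axis) in the Vehicle (grey circles) and Glutoborin (orange diamonds) library, with exact 95% counting intervals. Ube2c, Ccnb2 and Cenpf stand clearly apart between the libraries, while the abundant Hmgb2, Smc4, Tubb4b, Bub3 and Stmn1 lie on top of each other.

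Related members were compared as pairs. Cyclin B1 (Ccnb1) had 205 and 361 UMIs, a log2 ratio of 0.57 (0.31 to 0.82), beside 0.59 for Ccnb2, and 87.8% and 88.4% of its UMIs lay in cells rich in other members, beside 94.5% and 93.0%. The kinases Aurka, of the spindle poles, and Aurkb, of the passenger complex, had 175 and 250 UMIs (0.26, -0.02 to 0.55) and 364 and 407 UMIs (-0.09, -0.30 to 0.12). The checkpoint genes Bub1 and Bub1b had 108 and 129 UMIs (0.01) and 245 and 327 UMIs (0.17, -0.08 to 0.41). Cks1b had 1071 and 1266 UMIs (-0.01) and Cks2 1843 and 2114 (-0.05), and their spread differed, with 59.9% and 67.5% of Cks1b UMIs in cells rich in other members against 35.6% and 42.1% of Cks2. Of all possible stretches of 31 bases in the last 400 bases of its transcript, Cks1b shared 34.3% with the copy Cks1brt and Cks2 26.8% with other annotated genes, so part of their reads could have been dropped or split. None of the 46 members shared as much as 50%.

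Mitosis-rich cells were found mainly in NK cells, in a T cell cluster (cluster T1), in a cluster of the plasma cell class (cluster 9) and, at a low share, in B cells. Cell classes were rebuilt from marker genes with all members and the cell cycle lists kept out of the clustering. NK cells, 3.91% and 3.97% of cells, held 21.7% and 30.6% of narrow UMIs. Cluster T1, T cells led by Gzma, Pclaf and histone genes that could not be given a finer name, held 25.4% and 10.4% with 1.14% and 0.932% of cells. Cluster 9 held 9.44% and 17.4% with 0.554% and 0.808% of cells, and B cells held 20.6% and 18.6% with 54.7% and 57.7%. Outside mitosis-rich cells, the narrow sum lay between 129 and 178 CPM in each of the 8 classes with at least 100 cells in both libraries.

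**Figure D4:**
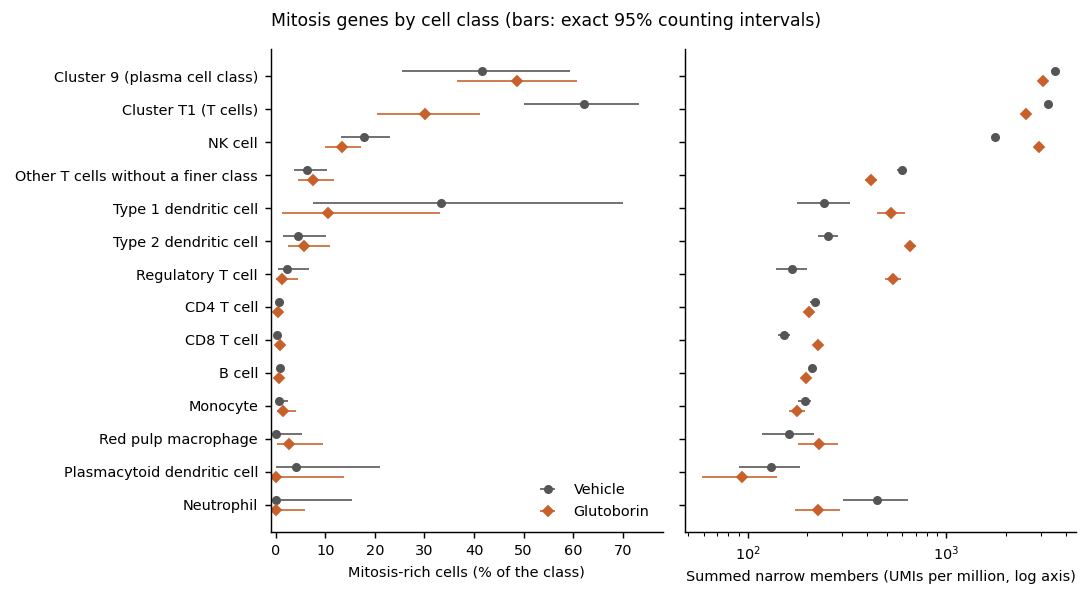
Left, mitosis-rich cells as a percent of each class; right, summed narrow members (CPM, log axis); Vehicle in grey circles, Glutoborin in orange diamonds, bars are exact 95% counting intervals. Cluster 9, cluster T1 and NK cells have the highest sums on the right; on the left type 1 dendritic cells (3 of 9 and 2 of 19 cells) also lie high, with wide bars. NK cells stand higher on the right in the Glutoborin library (2926 against 1764 CPM) while their shares on the left overlap.

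In NK cells, lymphocytes that kill infected cells, 24 of 39 measured narrow mitosis genes were at least 1.5-fold higher in the Glutoborin library. The class was a single cluster of 254 Vehicle and 354 Glutoborin cells, in which all 8 NK markers were found in at least 70.5% of cells. The narrow members summed to 4457 UMIs (1764 CPM) and 8235 UMIs (2926 CPM), which is 0.73 on the log2 scale (0.68 to 0.78). All 39 were above 0, and 0 were 1.5-fold lower, where 6.93% of 7667 measured genes were higher and 5.79% lower. All 6 broad members lay above 0 with 0 of them 1.5-fold higher.

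Among the members with the highest ratios in NK cells were several that are known to peak in mitosis itself. Ccnb1 had 25 UMIs in 11 Vehicle cells and 122 UMIs in 22 Glutoborin cells, a log2 ratio of 2.13 (1.5 to 2.81). Cenpf had 81 and 380 UMIs in 20 and 37 cells (2.07, 1.73 to 2.44), and Ube2c 156 and 633 UMIs in 23 and 46 cells (1.87, 1.61 to 2.13). Cdc20 had 50 and 192 UMIs (1.79), Plk1 36 and 127 (1.66), Hmmr 51 and 169 (1.57) and Ccnb2 92 and 270 (1.40). Top2a (826 and 1053 UMIs, 0.20) and Mki67 (527 and 680 UMIs, 0.21) differed least among the abundant narrow members. By role the ratio was 1.44 for the partners of the anaphase-promoting complex, 1.08 for the kinetochore, 0.82 for the Cdk1 core, 0.66 for kinesins and 0.39 for the spindle checkpoint.

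S phase genes lay below 0 in the same NK cells. They summed to 4181 CPM in the Vehicle and 2676 CPM in the Glutoborin library, a log2 ratio of -0.64 (-0.69 to -0.60), with 52 of 53 below 0 and 33 at least 1.5-fold lower. The number of mitosis-rich NK cells did not differ beyond counting error: 45 of 254 (17.7%, 13.2% to 23.0%) and 47 of 354 (13.3%, 9.92% to 17.3%), or 12% and 11.6% after thinning. A mitosis-rich NK cell held a median of 39 narrow UMIs from 15 members in the Vehicle library and 143 narrow UMIs from 33 members in the Glutoborin library, at median depths of 16967 and 15192 UMIs. Ncr1, the NK receptor gene, had a UMI in 45 of 45 and 46 of 47 of these cells. Genes of other cell types were also seen in them: the B cell gene Cd79a in 25 and 23, the myeloid gene Lyz2 in 31 and 12, Jchain of plasma cells in 10 and 4, and the T cell gene Trac in 7 and 15. The part of these in the result was not tested.

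The 10 richest NK cells held 54.0% and 46.9% of the narrow UMIs of the class, and without them in each library the log2 ratio was 0.91. Taken as UMIs per cell in place of CPM, it was 0.41.

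Cell by cell, the narrow sum exceeded the S phase sum in 7 of 45 mitosis-rich NK cells of the Vehicle library (15.6%, 6.49% to 29.5%) and in 26 of 47 of the Glutoborin library (55.3%, 40.1% to 69.8%). Over all mitosis-rich cells it did so in 38 of 178 (21.3%, 15.6% to 28.1%) and 88 of 203 (43.3%, 36.4% to 50.5%). In cluster T1 it did so in 8 of 46 (17.4%, 7.82% to 31.4%) and 12 of 25 (48.0%, 27.8% to 68.7%). In cluster 9 the shares were alike, 7 of 15 (46.7%, 21.3% to 73.4%) and 17 of 35 (48.6%, 31.4% to 66.0%). In the other T cells without a finer class the order was the opposite, 3 of 15 (20%, 4.33% to 48.1%) and 1 of 18 (5.56%, 0.141% to 27.3%), and in CD4 T cells the narrow sum was above in 4 of 6 and 3 of 6, both with wide, overlapping intervals. In B cells it was above in 5 of 31 (16.1%, 5.45% to 33.7%) and 11 of 36 (30.6%, 16.3% to 48.1%). The cells of 1 library share their mice, so these intervals cover counting error only.

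**Figure D5:**
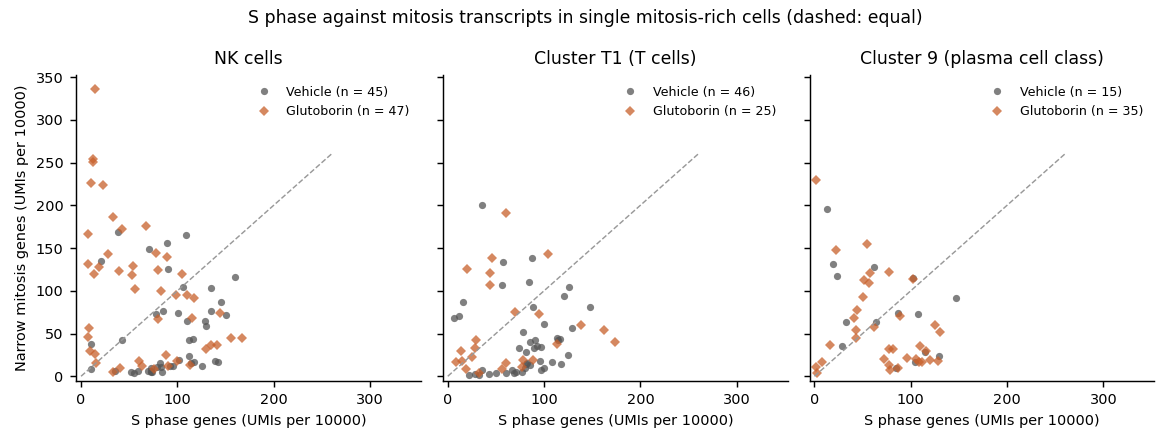
Each point is 1 mitosis-rich cell, with its S phase genes on the x axis and its narrow mitosis genes on the y axis (UMIs per 10000 of the cell), in NK cells, cluster T1 and cluster 9; Vehicle in grey circles, Glutoborin in orange diamonds, and the dashed line marks equal sums. In NK cells 26 of 47 Glutoborin points lie above the line, against 7 of 45 Vehicle points.

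In T cells the ratio lay below 0. Over all T cells, 1992 in the Vehicle and 2658 in the Glutoborin library, the narrow sum was 8664 and 7024 UMIs, with a log2 ratio of -0.48 (-0.52 to -0.43). Of 38 measured narrow members 36 were below 0 and 19 at least 1.5-fold lower with 0 higher, where 3.74% of 10488 measured genes were lower and 1.88% higher. Bub1b (95 and 45 UMIs, -1.25), Plk1 (126 and 62, -1.20) and Kif11 (166 and 93, -1.01) were among the lowest. Mki67 (609 and 366, -0.91), Top2a (1033 and 634, -0.88) and Birc5 (498 and 347, -0.70) followed. Ube2c (347 and 374 UMIs, -0.07) and Ccnb2 (223 and 242, -0.06) were near 0, and Cenpa (905 and 1117) stood at 0.13. S phase genes were lower too, at -0.54 (-0.56 to -0.51), with 34 of 53 at least 1.5-fold lower. Outside mitosis-rich cells the narrow sum of all T cells was 144 CPM in both libraries.

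Cluster T1 held 5209 and 2797 of these UMIs. It had 74 Vehicle and 83 Glutoborin cells, with unlike median depths of 19290.5 and 11310 UMIs. After thinning, 39.2% (28.0% to 51.2%) and 24.4% (15.6% to 35.1%) were mitosis-rich, and these intervals overlapped. Unthinned, 46 (62.2%, 50.1% to 73.2%) and 25 (30.1%, 20.5% to 41.2%) were mitosis-rich. Of these mitosis-rich cells, 29 of 46 and 12 of 25 had a UMI of Cd79a, 29 and 9 of Lyz2, 9 and 0 of Ms4a1, and 7 and 0 had Cd79a, Ms4a1, Cd3e and Trac together; median depths were 23509.5 and 18498 UMIs. The part of these in the result was not tested. Cd8a or Cd8b1 without Cd4 was seen in 49 and 48 of its cells and Cd4 alone in 16 and 15. The narrow sum was 3260 and 2523 CPM (-0.37, -0.44 to -0.30), with 12 of 33 measured members at least 1.5-fold lower, where 10.6% of 5527 genes were lower. The S phase sum was 7131 and 3558 CPM, with 48 of 51 at least 1.5-fold lower. Within the cluster, Mki67 (477 and 186 UMIs, -0.83) and Top2a (716 and 300, -0.73) were lower, while Cenpa (221 and 219 UMIs, 0.51), Ccnb2 (153 and 141, 0.41) and Ube2c (224 and 200, 0.36) were above 0. The other T cells without a finer class, 234 and 238 cells, had a narrow sum of 599 and 419 CPM, and 15 and 18 of them were mitosis-rich.

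Named T cell classes held few mitosis-rich cells, and their ratios rested on them. CD4 T cells had 6 of 807 and 6 of 1110 and a log2 ratio of -0.10 (-0.22 to 0.02). CD8 T cells had 2 of 749 and 9 of 1066 and a ratio of 0.58 (0.46 to 0.69), which was -0.03 without the 10 richest cells in each library and -0.95 at a coarser clustering. Regulatory T cells had 3 of 128 and 2 of 161 and a ratio of 1.70 (1.41 to 1.99), where the 2 Glutoborin cells held 70.2% of the narrow UMIs; without the 10 richest cells it was 0.55. The CD4 ratio was 0.60 at the coarser clustering. The regulatory T cell ratio stayed above 0 under the 6 alternatives run, between 0.50 and 1.68.

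B cells were the largest class and near even. Mitosis-rich cells were 31 of 3549 (0.873%, 0.594% to 1.24%) and 36 of 5140 (0.700%, 0.491% to 0.968%), and the narrow sum was 211 and 197 CPM, a log2 ratio of -0.10 (-0.16 to -0.04). Most narrow UMIs lay outside those cells, which held only 17.7% and 15.6% of them. Of 28 measured narrow members 1 was at least 1.5-fold higher (Ccnb2, 27 and 64 UMIs) and 3 lower (Nusap1, Cdk1 and Kif23), where 2.51% of 10655 genes were higher and 3.37% lower. The B cell ratio was 0.06 with doublets kept or at the coarser clustering and 0.07 with the mitochondrial limit at 25%, so its sign was not stable.

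Cluster 9 was placed in the plasma cell class by 5 of 7 markers, but its mitosis-rich cells carried B cell and plasma cell genes in different shares. All 15 mitosis-rich Vehicle cells and 30 of 35 Glutoborin cells had Ms4a1, the gene of the B cell protein CD20, and only 3 and 12 had Jchain, the joining chain of secreted antibody. It held 36 Vehicle and 72 Glutoborin cells, with 15 (41.7%, 25.5% to 59.2%) and 35 (48.6%, 36.6% to 60.7%) mitosis-rich. The narrow sum was 3518 and 3068 CPM (-0.20, -0.27 to -0.12). The cluster depended on the processing. At the coarser clustering, and also with doublets kept, the plasma cell class had 11 and 25 cells with all 7 markers. With the mitochondrial limit at 25% it had 13 and 25. The shares and the ratio of cluster 9 therefore hold for the main run only. Here the broad Stmn1 (0.36) and Tubb4b (0.35) were above 0 and Top2a (356 and 589, -0.74) and Cenpf (87 and 143, -0.75) below, unlike in NK cells; the difference was not tested. For B cells and cluster 9 as 1 class the ratio was 0.26 (0.22 to 0.31), but 0.07 with doublets kept or at the coarser clustering.

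Mitosis-rich cells were few in number in every myeloid class, at shares that differed between them. Monocytes had 2 of 299 and 3 of 207 mitosis-rich cells and a ratio of -0.12 (-0.30 to 0.06). Type 2 dendritic cells had 5 of 112 and 8 of 141, a narrow sum of 254 and 659 CPM and a ratio of 1.37 (1.18 to 1.57), which was 0.00 without the 10 richest cells in each library. This class rested on 4 of 7 markers. Type 1 dendritic cells had 3 of 9 (33.3%, 7.49% to 70.1%) and 2 of 19 (10.5%, 1.30% to 33.1%) and a narrow sum of 44 and 159 UMIs (243 and 528 CPM, log2 1.12, 0.63 to 1.64). Red pulp macrophages had 0 of 67 and 2 of 73 mitosis-rich cells, plasmacytoid dendritic cells 1 of 24 and 0 of 25, and neutrophils 0 of 22 and 0 of 61.

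Markers used for red cell precursors, which also divide, were present at a level that moved between the libraries. The 10 markers include Tfrc and Car2, which other cells use too, so their sum is not of red cell precursors alone. They summed to 324 CPM over all Vehicle cells and 94.0 over all Glutoborin cells. Within mitosis-rich cells they summed to 113 and 732 CPM, and Hba-a1 had a UMI in 0 and 4 of those cells. None of the 10 was at 0. Cells without a class held 4 and 10 of the mitosis-rich cells. The part of these cells in the result was not tested.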

How the data were processed

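Per the labels' protocols, libraries were made with the 10x Genomics 3′ v3.1 kit from CD45-sorted spleen cells; the matrices hold raw UMI counts per gene and barcode, which the authors deposited unnormalized. The submitters' processing notes name Cell Ranger 6.0.1, Seurat 4.3.0 and mm10, whereas Cell Ranger 6.1.2 stands in the count matrices per the file headers. The steps that follow were run here. Kept barcodes had 300 or more genes, 500 or more UMIs and a mitochondrial share below 10%, doublets called by Scrublet were removed per library, and cells were clustered with scanpy 1.11.5 (2000 variable genes without the members and cell cycle lists, library as batch, 30 components, 15 neighbours, Leiden resolution 1.5). Also kept out of the variable genes were immunoglobulin genes, T cell receptor segments, and interferon-induced genes that were not class markers. Mitochondrial, ribosomal, histone, heat shock and immediate early genes were kept out as well. T cell clusters were clustered again. A cluster was named from at least 3 markers in at least 20% of its cells and stayed unnamed where another class led; these limits were set after the clusters had been seen. CD8 T cells have only 2 markers of their own and rest on 7 T cell markers too.

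The members and gene lists were chosen with earlier results of these data known. All 46 members are named by role, with full values for the 5 most abundant in each library, those at least 1.5-fold apart with at least 50 UMIs over both libraries, and 4 related pairs, and 10 other genes are named by their share of UMIs in mitosis-rich cells. Binomial and Poisson intervals are exact (95%); a count of 0 was read as allowing up to 3 counts. UMIs in a class can be higher through more dividing cells or more RNA in each. Scripts were tested on simulated data. Gene positions are GENCODE M21 (GRCm38).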

Additional observations from a re-analysis of the deposited data

Results flagged for a closer look

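The summed narrow mitosis genes differed in direction between cell classes of the same 2 libraries. The log2 ratio, Glutoborin over Vehicle, lay above 0 beyond counting error in CD8 T cells (0.58), NK cells (0.73), regulatory T cells (1.70) and type 2 dendritic cells (1.37). It lay below 0 in B cells (-0.10) and in T cells without a finer class (-0.53). Counting error here takes UMIs as independent, although few cells held many of them. Without the 10 richest cells in each library, the ratio was -0.03 in CD8 T cells and 0.00 in type 2 dendritic cells. It was then 0.55 in regulatory T cells, 0.91 in NK cells, -0.08 in B cells and -0.96 in T cells without a finer class. With 1 library of each treatment the difference between classes was not tested. The NK ratio kept its sign under the 6 alternatives run, while the CD8 and B cell ratios changed sign under at least 1 of them.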

How the results depend on the processing

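No paired analysis was possible because each treatment had 1 library and no test was made. Of 90 alternatives to the main values, 51 were taken as the same and 39 moved. For shares and summed ratios, the same means within counting error. The counts of members, which have no such interval, are among the 51. No value past 1.5-fold changed sign. CD8 T cells (0.58) and CD4 T cells (-0.10), which were within 1.5-fold, passed it in the opposite direction at the coarser clustering. The count of members at least 1.5-fold higher, 4, was 3 with doublets kept (without Ccnb2, 0.55), 5 with the mitochondrial limit at 25% (with Ccnb1, 0.59) and 6 without the 10 richest cells. The count of those lower stayed at 0, and the counts of restricted members stayed within 1.5 times. Log2 ratios that moved are given here. The narrow sum over all cells was -0.063 as UMIs per cell and 0.051 with all 46 members. As UMIs per cell, it was -0.29 in B cells, -0.34 in CD4 T cells, 0.41 in NK cells, -0.92 in T cells without a finer class, -0.72 in all T cells and 0.11 in B cells with cluster 9. With the mitochondrial limit at 25%, it was 0.073 in B cells, -0.37 in CD4, 0.38 in CD8, -0.40 in monocytes, 0.86 in NK cells, -0.55 in all T cells and 0.080 in B cells with cluster 9. With doublets kept, it was 0.063 in B cells, 0.24 in CD8, 0.65 in NK cells, -0.11 in T cells without a finer class, -0.27 in all T cells and 0.072 in B cells with cluster 9. Without the 10 richest cells, it was -0.027 in CD8, 0.91 in NK cells, 0.55 in regulatory T cells, -0.96 in T cells without a finer class, -0.53 in all T cells and 0.00085 in type 2 dendritic cells. With all 46 members, it was 0.17 in CD8, 0.52 in NK cells, 0.50 in regulatory T cells, -0.40 in T cells without a finer class, -0.33 in all T cells, 0.95 in type 2 dendritic cells and 0.19 in B cells with cluster 9. At Leiden resolution 0.8, it was 0.064 in B cells, 0.60 in CD4, -0.95 in CD8, 0.57 in regulatory T cells and 0.073 in B cells with cluster 9. The causes were not tested. Taking all T cells together, B cells with cluster 9 together and the members' calls without the 10 richest cells were alternatives chosen after seeing the data. Ube2c moved to 1.04 and Hmgb2 to 0.03 without the 10 richest cells, and the other 44 single-member alternatives stayed within counting error. The share of mitosis-rich cells had a log2 ratio between -0.43 (at least 3 members, interval below 0) and -0.07 over its alternatives.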
